A study of Mus musculus with 5 samples.

Results

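The comparison set 2 mouse whole-lung pools against each other, both from animals with a right ventricular pressure of 50 ± 8 mmHg. One came from SM22-tet-BMPR2delx4+ mice on doxycycline and is called induced below. The other is from hypoxic FVB/N animals, 8 weeks old, that had spent 4 weeks in hypoxia. They are 2 of the 5 pools of the series, chosen by their titles, and all genes of the array were read as 1 ratio, induced over hypoxic, that uses no control pool. The other 3 pools had pressures of 30 ± 3 mmHg. They were SM22-tet-BMPR2delx4+ mice without doxycycline, SM22-rtTA mice on doxycycline, which carry the doxycycline-dependent activator without the receptor transgene, and wild-type FVB/N mice aged 8 weeks. They served only to place a difference, not to make it. In the titles of the transgenic pools, 8 weeks may be an age or a length of treatment, which the labels leave unsaid. The kind of error after each pressure, the number and sex of the animals in a pool, the oxygen level and the strain of the transgenic mice are not stated in the labels. Each condition was 1 array of pooled RNA, so no spread between animals was measured, there is no test and no p-value, and precision is limited by the number of arrays. The transgene, doxycycline, oxygen and possibly strain differ together between the pools and cannot be told apart.

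BMPR2 is a receptor for bone morphogenetic proteins (BMPs). It signals through SMAD proteins to the inhibitors of differentiation (Id genes), and loss-of-function mutations in it are the main known cause of heritable pulmonary arterial hypertension. The SM22 promoter, that of the smooth muscle gene Tagln, drives the doxycycline-dependent activator, so that a mutant receptor with a dominant-negative action is made in smooth muscle when doxycycline is given. Chronic hypoxia raises pulmonary pressure by a different route, with constriction of small arteries and thickening of their muscle coat. Whole lung also holds alveolar epithelium, capillary endothelium, airway cells and immune cells. In bulk RNA of this kind, fewer cells of a type and less RNA per cell cannot be told apart.

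Values are array intensities scaled to a common median of the 2 pools, and the noise floor is a scaled intensity of 280. A gene counted as measured where it was above the floor in at least 1 of the 2 pools, which 7922 of 12393 genes were, 6516 of them in both. Where 1 of the pools was at the floor the fold is a lower bound, marked by "at least". The lung label held in both pools: surfactant protein C (Sftpc) was at 10508 in the induced pool and 11744 in the hypoxic pool, Sftpb at 6449 and 8257, Scgb1a1, secreted by club cells, at 11234 and 10961, the alveolar type 1 receptor Ager at 5038 and 6893, and the endothelial adhesion molecule Pecam1 at 1474 and 3197.

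The induced and hypoxic lungs differed at least 2-fold in 427 measured genes, 5.39% of them. Of these, 217 (2.74%) were higher in the induced pool, led by genes of striated muscle, and 210 (2.65%) were higher in the hypoxic pool, led by genes of cornified epithelium and by the chitinase-like Chil3. The larger differences lay on the induced side, with 67 against 20 genes at least 3-fold apart and 36 against 6 at least 4-fold apart. Over genes measured in both pools the SD of the log2 ratio was 0.53, and 76.9% of them were within 1.5-fold. The near-equal split rests on the scaling. With intensities as deposited, which moves the median of all genes by 0.12 (log2), 322 genes were higher on the induced side and 123 on the hypoxic side, a share of 72.4% induced, and with a common median over all probe sets, a move of 0.11, 303 and 138, a share of 68.7%. The main scaling gave 50.8%.

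**Figure D1:**
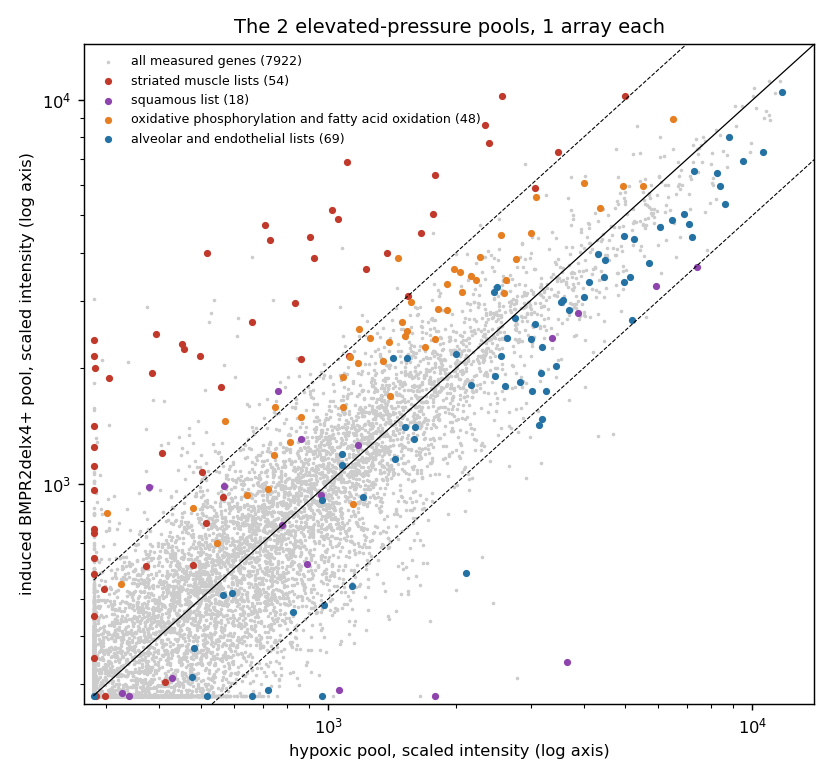
Scaled intensity of each measured gene in the hypoxic pool (x axis) and in the induced pool (y axis), both log axes, 1 point a gene, with the line of equality and dashed lines at 2-fold. Striated muscle genes (red) lie above the upper dashed line in most cases, and alveolar and endothelial genes (blue) lie mostly below the line of equality.

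For scale, the same count was made for all 10 pairs of the 5 pools. The pair least apart was BMPR2delx4+ without doxycycline against SM22-rtTA, with 1.51% of measured genes at least 2-fold apart and an SD of 0.35. The induced and hypoxic pools were further apart than that pair by both measures, and less far apart than any pool was from wild type, where 8.54% to 11.9% of genes were at least 2-fold apart. The induced pool was 2.49% from BMPR2delx4+ without doxycycline and 4.81% from SM22-rtTA, and the hypoxic pool was 5.39% and 5.11% from them. These pairs share pools, and none of them is a pair of replicates.

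**Figure D2:**
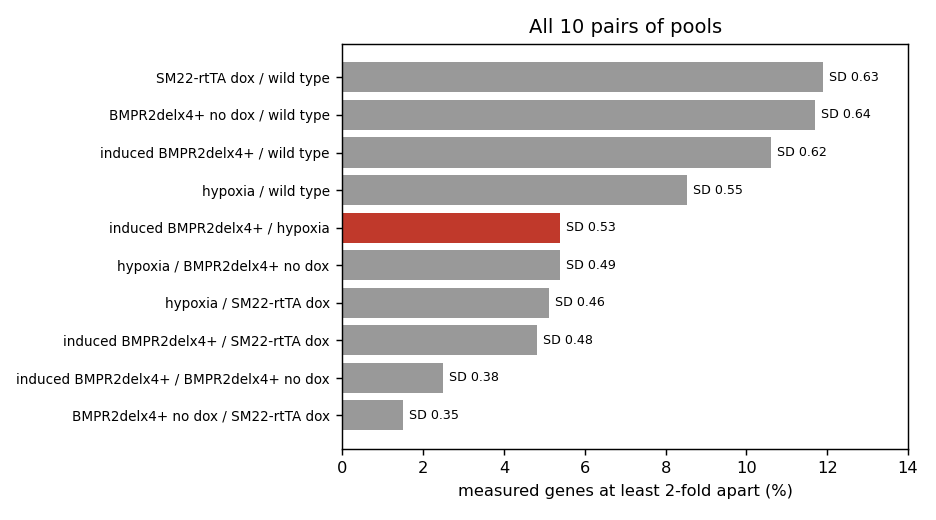
Share of measured genes at least 2-fold apart (x axis, percent) for each of the 10 pairs of pools, with the SD of the log2 ratio over genes measured in both printed beside each bar. The induced and hypoxic pair (red) stands at 5.39%, between 1.51% for the transgenic normal-pressure pair and 11.9% for SM22-rtTA against wild type.

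Genes of skeletal and heart muscle made up the top of the induced side. Of the 22 measured genes of a fast skeletal muscle list, 20 were at least 2-fold higher in the induced pool and 0 in the hypoxic pool, with a median log2 ratio of 2.07, where all measured genes had a median of -0.007. Of 17 slow and ventricular muscle genes 14 were higher in the induced pool (median 1.70), and of 15 cardiac and atrial genes 8 were (median 1.09). The giant sarcomere spring titin (Ttn) was at 3036 in the induced pool and at the floor in the hypoxic pool, at least 10.8-fold apart, and 291 in wild type was its highest value in a normal-pressure pool. Myotilin (Myot), a Z-disc protein, was at 2373 in the induced pool and at the floor in all 4 others, at least 8.48-fold. The fast troponin T gene Tnnt3 was at 3990 and 517 and at the floor in the 3 normal-pressure pools, 7.71-fold. Here the hypoxic pool was also above the normal range, while Ttn and Myot were not.

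The muscle genes did not keep 1 ratio between the pools. Skeletal actin Acta1 was at 10242 in the induced pool and 5015 in the hypoxic pool, 2.04-fold, while it was at 667 in BMPR2delx4+ without doxycycline and at the floor in SM22-rtTA and wild type. Muscle creatine kinase (Ckm) was at 10236 and 2565, 3.99-fold, with 523 to 787 in the normal-pressure pools. The fast light chain Myl1 was at 6908 and 1106, 6.24-fold, and the sarcoplasmic calcium pump Atp2a1 at 4709 and 708, 6.65-fold. Acta1, Ckm, Myl1 and Atp2a1 were thus above every normal-pressure pool on both sides of the comparison. Other fast fibre genes were measured in the induced pool alone. The myosin heavy chain Myh2 was at 2150 there and at the floor in the other 4 pools, as were the calcium release channel Ryr1 (964), the calcium store protein Casq1 (1112) and the actin cross-linker Actn3 (1243). The call of Ryr1 ended with a floor at the 70th percentile (0.81).

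Several heart genes were also expressed in the normal-pressure lungs, and the place of the hypoxic pool differed among them. Cardiac troponin I (Tnni3) was at 2245 in the induced pool and 456 in the hypoxic pool, 4.93-fold, and at 776 without doxycycline, 965 in SM22-rtTA and 626 in wild type, so the hypoxic pool was below all 3. The atrial myosin heavy chain Myh6 was at 3863 and 924, with 970 to 1307 in the normal-pressure pools. The atrial light chain Myl7 was at 3982 and 1377, with 1769 to 1841 in those pools. For Tnni3, Myh6 and Myl7 the induced pool was above and the hypoxic pool below the normal range, as for Tnnt2 (3627 and 1229, with 1320 to 1601). The hypoxic value was within that range for Myl4 (4504 and 1652, with 1638 to 1890) and for the calcium pump inhibitor Pln (1070 and 504, with 464 to 663). It was above it for Hspb7 (2107 and 864, with 571 to 696), and Smyd1 was at 639 in the induced pool and at the floor in the other 4. The natriuretic peptides, hormones of stretched heart muscle, were near the floor: Nppa was at 303 and 413, and Nppb at the floor and 283. In mice a sleeve of heart muscle surrounds the large pulmonary veins, so that low levels of such genes belong to normal lung samples.

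Summed over the list, fast skeletal genes were at 85216 in the induced pool, 22796 in the hypoxic pool and 8301 to 9447 in the normal-pressure pools. Slow and ventricular genes summed to 50464 and 16804, with 15497 to 15856 in the normal-pressure pools, and cardiac and atrial genes to 25238 and 9882, with 11083 to 11317. Whether muscle or heart tissue carried along with the lung has a part in these ratios was not tested. Of the 217 genes higher in the induced pool 50 were in lists of other tissues, and of the 210 higher in the hypoxic pool 8 were. Without the genes of those lists 167 and 202 remained, among 7810 of the 7922 measured genes. Ttn and Actn2 on the induced side, and Lce3a and Asprv1 on the hypoxic side, are examples of genes on none of those lists. They stay in these counts, so the counts are not free of genes of other tissues.

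**Figure D3:**
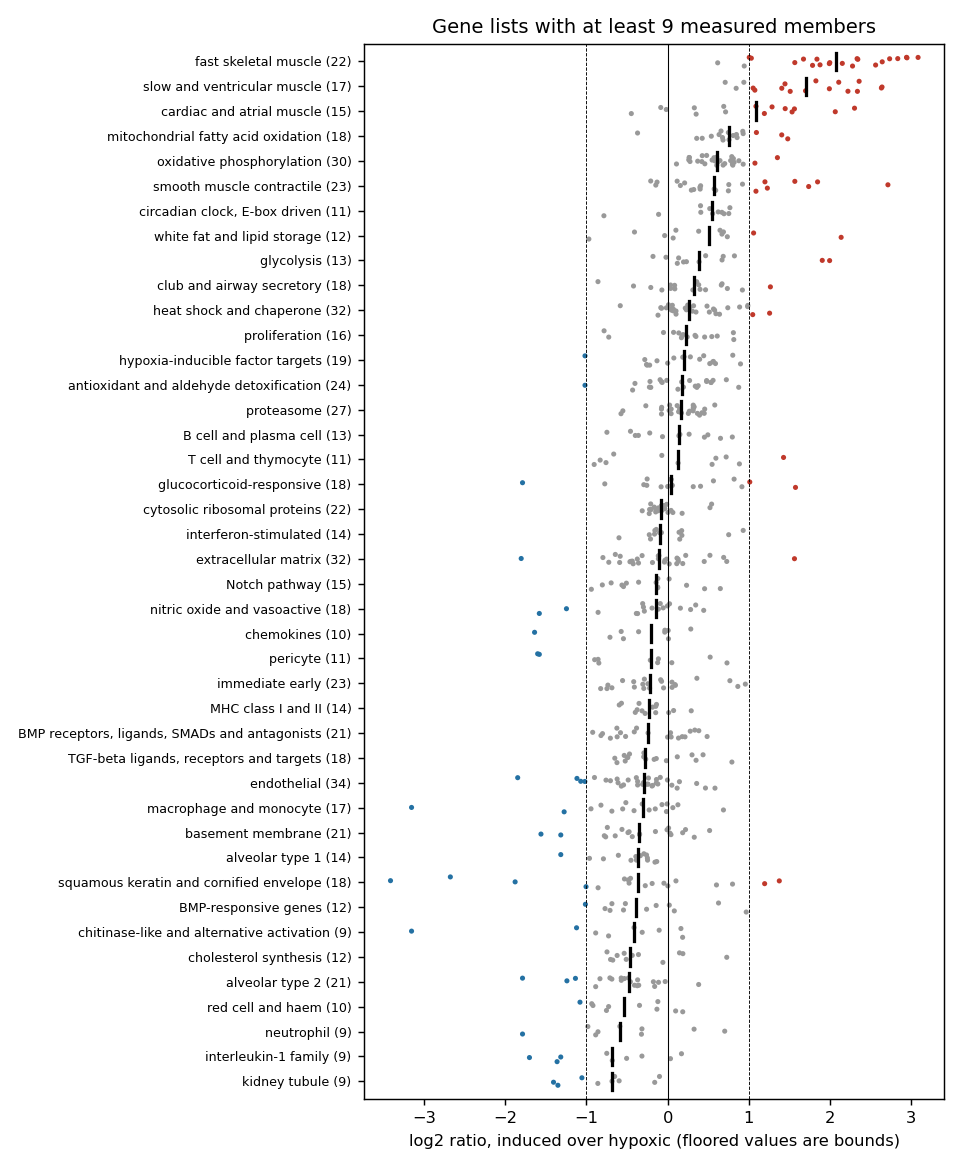
Log2 ratio of induced over hypoxic (x axis) for the measured members of each gene list with at least 9 of them, 1 point a gene, number of genes in parentheses, with the median as a black bar and dashed lines at 2-fold. Points past 2-fold are red (higher in induced) or blue (higher in hypoxic), and the list medians run from 2.07 (fast skeletal muscle) to -0.69 (kidney tubule).

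Promoters are shown for the muscle genes that hold a CArG box, the site of serum response factor, which drives many muscle genes. Of the 42 genes of the 3 striated muscle lists that were higher in the induced pool, 34 were matched by symbol to the RefSeq promoter table (GRCm38.p6). Within 250 bases before the start, on either strand, 4 of the 34 (11.8%) held a CArG box, against 95 of 6388 measured genes with a promoter (1.49%) and 378 of 27025 promoters of the table (1.40%). An E-box, CANNTG, which can overlap other motifs, was present in 27 of 34 (79.4%), against 57.3% of measured genes and 66.0% of the table, and a MEF2 site in 1 (2.94%), against 0.47% and 0.52%. Over all 44 measured striated muscle genes with a promoter, called or not, 81.8% held an E-box and 11.4% a CArG box, shares close to those of the called ones. A match is a run of letters and not a shown binding site, and these genes share their tissue of expression. The capitals mark the CArG box. The regions are chr8:123894776-123895025 (minus strand) for skeletal actin Acta1, chr11:67237562-67237811 (plus) for the fast myosin Myh4, chr9:110763428-110763677 (plus) for the slow and ventricular light chain Myl3 and chr11:5898783-5899032 (minus) for the atrial light chain Myl7.
Acta1: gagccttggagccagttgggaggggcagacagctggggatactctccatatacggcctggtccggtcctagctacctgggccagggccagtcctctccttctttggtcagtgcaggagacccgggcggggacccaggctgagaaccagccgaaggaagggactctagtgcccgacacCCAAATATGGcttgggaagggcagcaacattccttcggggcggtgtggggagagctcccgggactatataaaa
Myh4: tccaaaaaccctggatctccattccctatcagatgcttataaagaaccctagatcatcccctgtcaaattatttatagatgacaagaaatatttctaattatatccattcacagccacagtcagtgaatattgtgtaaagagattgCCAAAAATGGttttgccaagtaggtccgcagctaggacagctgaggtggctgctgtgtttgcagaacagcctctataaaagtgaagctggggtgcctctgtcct
Myl3: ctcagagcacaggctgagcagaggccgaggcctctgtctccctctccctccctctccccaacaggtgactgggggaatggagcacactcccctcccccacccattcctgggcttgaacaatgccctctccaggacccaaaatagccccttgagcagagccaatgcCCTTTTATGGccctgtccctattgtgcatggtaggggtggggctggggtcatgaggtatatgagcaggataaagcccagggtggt
Myl7: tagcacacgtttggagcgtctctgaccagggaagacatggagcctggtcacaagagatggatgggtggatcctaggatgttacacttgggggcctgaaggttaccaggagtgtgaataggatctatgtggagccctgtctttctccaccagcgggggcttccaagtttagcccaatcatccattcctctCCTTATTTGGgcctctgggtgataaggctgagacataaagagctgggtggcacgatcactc

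Among these 4 genes the ratios ran from 2.01-fold for Myh4 (3089 induced, 1539 hypoxic) and 2.04-fold for Acta1 to 2.85-fold for Myl3 (5032 and 1768) and 2.89-fold for Myl7 (3982 and 1377). Myl3 had 2 further probe sets, with log2 ratios of 3.04 and 1.70. They were not the muscle genes furthest apart, and the call of Myh4 ended with quantile normalization and with a pseudocount (0.96 in each).

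Genes of mitochondria were higher in the induced than in the hypoxic lung as a group, by less than 2-fold for most. All 30 measured oxidative phosphorylation genes had a ratio above 0, with a median log2 ratio of 0.61, and 2 were at least 2-fold apart. Of 18 genes of mitochondrial fatty acid oxidation 17 were above 0, with a median of 0.75, and 3 were at least 2-fold apart. The complex I subunit Ndufs1 was at 1453 in the induced pool and 570 in the hypoxic pool, 2.55-fold, with 836 without doxycycline, 797 in SM22-rtTA and 2071 in wild type. Hadhb, of the trifunctional protein of fatty acid breakdown, was at 3863 and 1459, with 1601, 2014 and 3753 in the same order. In Ndufs1 and this probe set of Hadhb the hypoxic pool was below all 3 normal-pressure pools. The other probe set of Hadhb was at 2562 and 1835, with 1181, 1054 and 2957, so there hypoxia was not lowest, and the mean of both gave a log2 ratio of 0.94, under 2-fold. Carnitine transferase Cpt2 was at 838 and 301, 2.79-fold, but the mean of its 2 probe sets gave a log2 ratio of 0.30 and the higher floor 0.61.

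Hypoxia was also lowest of the 5 pools in the brightest probe sets of some enzymes of the citric acid cycle and its entry, which were looked up after their values were seen. Citrate synthase (Cs) was at 2418 and 1185, with 1348 to 2309 in the normal-pressure pools, and its other 2 probe sets had log2 ratios of 1.09 and 1.56, the former with hypoxia at 634 and the pool without doxycycline at 626. The call of Cs ended with quantile normalization (0.98) and with a pseudocount (0.97). Isocitrate dehydrogenase subunit Idh3b was at 3234 and 1450, but its other probe set had hypoxia at 563 and SM22-rtTA at 535, and the mean of both gave a log2 ratio of 0.94. Dlat, of the pyruvate dehydrogenase complex, was at 834 and 293. Among the coenzyme Q synthesis genes Coq9 was at 1015 and at the floor, with 469 to 1200 in the normal-pressure pools. With the higher floor the calls of Dlat (0.60) and Coq9 (0.88) ended. Summed oxidative phosphorylation genes were at 102585 in the induced, 70246 in the hypoxic, 71086 to 71521 in the transgenic normal-pressure and 148100 in the wild-type pool. By that sum the induced pool stood above the 2 transgenic normal-pressure pools and the hypoxic pool close to them. Striated muscle and brown fat are rich in these genes, and their part in this difference was not tested.

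Most measured brown fat genes were far apart. Of 9 such genes on the array 4 were measured, 3 were at least 2-fold higher in the induced pool, and the fourth, the potassium channel Kcnk3, which is also on the vasoactive list, was at 316 and 386 with the higher value in hypoxia. The uncoupling protein Ucp1, which makes heat in brown fat, was at 1571 in the induced pool and at the floor in the hypoxic and both transgenic normal-pressure pools, at least 5.61-fold, and wild type was at 785. Cidea, a lipid droplet protein, was at 1553 in the induced pool and at the floor in the same 3 pools, and wild type was at 1241. The cytochrome oxidase subunit Cox8b was at 2882 and 373, 7.73-fold, with 384, 326 and 1464. Ucp1, Cidea and Cox8b were thus highest in the induced pool and next highest in wild type. Of 12 white fat and lipid storage genes 2 were higher in the induced pool, Thrsp (2695 and 613) and the triglyceride enzyme Dgat2 (2287 and 1098), while adiponectin (Adipoq) was at 1246 and 784. The brown fat list summed to 6322 and 1319, with 1214 to 4126 in the normal-pressure pools, and the white fat list to 33782 and 25564, with 19170 to 42511. The part of fat tissue in these differences was not tested.

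In glycolysis, the muscle isoforms were apart and the general enzymes less so. Phosphofructokinase of muscle (Pfkm) was at 2423 and 608, 3.98-fold, and hexokinase 2 (Hk2), the form of muscle and fat, at 1390 and 371, 3.74-fold. Of 13 measured genes of the list these were the 2 past 2-fold, and the median was 0.39. The glucose transporter Slc2a1 was at 575 and 652, while another of its probe sets ran the other way, at 543 and 300. Lactate dehydrogenase Ldha was at 5174 and 3742.

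Smooth muscle genes leaned to the induced pool as well, although Tagln, the gene whose promoter drives the activator, was little apart. Tagln was at 3843 in the induced pool and 2912 in the hypoxic pool, 1.32-fold, with 2190 to 3582 in the normal-pressure pools, and smooth muscle actin Acta2 at 5551 and 3684, 1.51-fold, with 2673 to 5160. Of 23 contractile genes 7 were at least 2-fold higher in the induced pool, against 2.74% of all measured genes, and 0 in the hypoxic pool. The median was 0.57. The 7 include Pln, which is also counted on the cardiac list, and Pdlim7, at 943 and 283 and at the floor in every normal-pressure pool. The other probe set of Pdlim7 was at 490 and 431, with 286 to 628 in the normal-pressure pools. The call of Pdlim7 ended with the higher floor (0.78). Calponin (Cnn1), a marker of contractile smooth muscle, was at 1322 and 446, with 1237 without doxycycline, 564 in SM22-rtTA and 317 in wild type, so the induced value was near that of the same genotype without doxycycline. Desmin (Des) was at 2747 and 1198, and tropomyosin Tpm1 at 6820 and 2912, both of which striated muscle also expresses, as it does the Z-disc genes Ldb3 (1834 and the floor) and Pdlim3 (1006 and the floor), whose call ended with the higher floor (0.87). Desmin and Tpm1 each had a probe set of the opposite sign, at the floor and 397 for Des and at 1407 and 1750 for Tpm1, and with the mean of probe sets their log2 ratios were 0.10 and 0.36. Myosin Myh11, the smooth muscle heavy chain, was at 2055 and 1224, 1.68-fold, with 1897 without doxycycline.

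Squamous genes lay on both sides of the comparison. Of 18 measured genes 4 were at least 2-fold higher in the hypoxic and 2 in the induced pool, and the median was -0.37. The hypoxic side held cornified envelope genes, which belong to the outer layers. Lce3c was at 343 in the induced pool and 3653 in the hypoxic pool, 10.7-fold, with at most 327 in the normal-pressure pools. Sprr3 was measured in the hypoxic pool alone, at 1789, at least 6.39-fold, and Sprr1a was at 289 and 1062, 3.68-fold, a call that ended with the higher floor (-0.95). The skin protease Asprv1 (1776 in the hypoxic pool, at the floor in the induced pool) and Lce3a (489 and 2447), neither of which is on the list, had the same direction. The induced side held keratins of the basal or injured layers, Krt5 at 982 and 379 and Krt6a at 1746 and 763, both at the floor in the 3 normal-pressure pools. The higher floor ended the call of Krt5 (0.84). For Krt6a another probe set ran the other way, at 338 and 599, and choosing probe sets by their mean over all 5 pools turned its log2 ratio to -0.83.

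Both pools were above the normal range for the keratins of moist squamous epithelium. Krt4 was at 3679 in the induced pool and 7387 in the hypoxic pool, 2.01-fold, and Krt13 at 3272 and 5927, 1.81-fold, and both were at the floor in the 3 normal-pressure pools. Krt4 was on the edge of the 2-fold rule and under it with intensities as deposited (-0.87), and a dimmer probe set of Krt13 was near equal in the elevated-pressure pools, at 438 and 409. The basal keratin Krt15 was at 931 and 961 and the metallothionein Mt4 at 1261 and 1175, also at the floor in those pools. The whole list summed to 22540 in the induced, 34528 in the hypoxic and 5729 to 6322 in the normal-pressure pools. Such epithelium lines the mouse oesophagus and skin and is not part of the normal deep lung, and its part in these differences was not tested.

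The promoter of Sprr1a is shown for its AP-1 sites, TGANTCA, the motif of FOS and JUN dimers, which drive many genes of cornified envelopes. Of the 11 measured squamous genes matched to a promoter, called or not, 5 (45.5%) held it on either strand within 250 bases before the start. It was held by 302 of 6388 measured genes (4.73%) and 6.87% of all promoters of the table. Among all genes higher in the hypoxic pool, 9 of 162 with a promoter (5.56%) held it. The region is chr3:92485882-92486131 on the minus strand of GRCm38.p6, from RefSeq, and the capitals mark its 2 AP-1 matches. FOS and JUN genes are in a list of 23 immediate early genes with a median of -0.22. Of these 0 were 2-fold apart, where 5.39% of all measured genes were. The part of FOS and JUN in the difference of Sprr1a was not tested.
Sprr1a: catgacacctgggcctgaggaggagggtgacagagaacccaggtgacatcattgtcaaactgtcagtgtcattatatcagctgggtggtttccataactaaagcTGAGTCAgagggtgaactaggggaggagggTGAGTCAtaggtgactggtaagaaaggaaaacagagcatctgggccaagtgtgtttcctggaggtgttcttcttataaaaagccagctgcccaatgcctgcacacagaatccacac

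**Figure D4:**
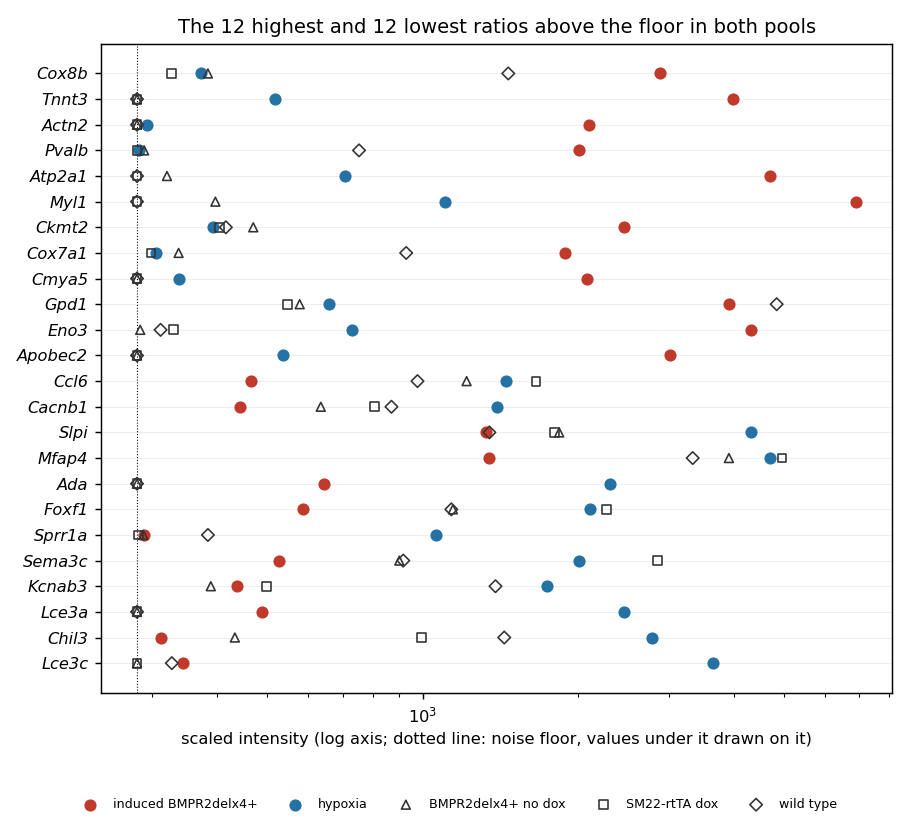
Scaled intensity (x axis, log scale) in all 5 pools for 12 genes at each end of the ratios among those above the floor in both elevated-pressure pools, without predicted loci, with the floor of 280 as a dotted line. For Tnnt3 the normal-pressure pools (open symbols) lie on the floor and the hypoxic pool at 517, while for Mfap4 the hypoxic pool (4689) lies among the normal-pressure pools and the induced pool (1343) below them.

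A minority of chitinase-like, interleukin-1 family and other innate defence genes were at least 2-fold higher in the hypoxic lung. Chil3, a chitinase-like protein secreted by alveolar macrophages, was at 312 in the induced pool and 2779 in the hypoxic pool, 8.91-fold, with 433 without doxycycline, 996 in SM22-rtTA and 1438 in wild type. The antiprotease Slpi was at 1328 and 4322, 3.25-fold, with 1346 to 1837 in the normal-pressure pools. Interleukin 18 (Il18), a cytokine of epithelium and macrophages, was at 322 and 827, 2.57-fold, with 303 to 606, a call that ended with the higher floor (log2 ratio -0.59). In these 3 genes the hypoxic pool was highest of the 5. The interleukin-1 receptor antagonist Il1rn was at 633 and 1576, 2.49-fold, with 760 to 952, but its other 2 probe sets were at the floor in both pools and the mean of the 3 gave a log2 ratio of -0.25.

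Other myeloid genes were low in the induced pool, with the hypoxic value in or near the normal range. The chemokine Ccl6 was at 465 and 1447, with 977 to 1657 in the normal-pressure pools, and its second probe set at the floor and 734. The iron-binding Lcn2 was at the floor and 966, with 457 to 887. Ear3, an eosinophil-type ribonuclease, was at the floor and 1027, with 705 in wild type, 1111 in SM22-rtTA and the floor without doxycycline. With the higher floor the calls of Lcn2 (-0.81) and Ear3 (-0.90) ended. By list, 0 genes were higher in the induced pool. Higher in the hypoxic pool were 3 of 9 genes of the interleukin-1 family list (median -0.68) and 2 of 9 chitinase-like genes (-0.41). So were 2 of 17 macrophage and monocyte genes (-0.31) and 1 of 9 neutrophil genes (-0.59), against 2.65% of all measured genes. The 3 of the interleukin-1 family list were Il18, Il1rn and the antiprotease Slpi. Chil3 was counted in both the chitinase-like and the macrophage list. The other macrophage call was Krt79, at the floor and 677, which ended with the higher floor (-0.30). The other chitinase-like call was Chia1, at 745 and 1622, with 1638 without doxycycline. It ended with intensities as deposited (-0.99). In the interleukin-1 family, chitinase-like and neutrophil lists 2 members each were above 0. The macrophage list summed to 22081 in the induced, 30876 in the hypoxic and 25240 to 30290 in the normal-pressure pools. The alternative activation marker Retnla did not follow Chil3 and was at 1879 and 1678.

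Vessel and alveolar genes were lower in the induced than in the hypoxic lung, mostly by less than 2-fold. Of 34 endothelial genes 28 were below 0, with a median of -0.29, and 4 were at least 2-fold apart. Of 21 alveolar type 2 genes 20 were below 0 (median -0.48, 3 past 2-fold), and all 14 alveolar type 1 genes were (median -0.36, 1 past 2-fold). Over all measured genes 2.65% were higher in the hypoxic pool. The type 2 calls were Napsa, Etv5 and Lcn2, which is also counted on the neutrophil list, and the type 1 call was Col4a3. With a floor at the 70th percentile the calls of Lcn2 (-0.81), Etv5 (-0.27) and Col4a3 (-0.39) ended. The forkhead factor Foxf1, which guides lung mesenchyme and capillaries, was at 586 in the induced pool and 2109 in the hypoxic pool, 3.60-fold, with 1144 without doxycycline, 2269 in SM22-rtTA and 1136 in wild type. Pecam1 was at 1474 and 3197, 2.17-fold, with 2582, 2503 and 1290, so the induced value was above that of wild type. Endomucin (Emcn) was at 540 and 1135, and the vessel peptide apelin (Apln) at 482 and 977. Pecam1, Emcn and Apln were under 2-fold with intensities as deposited, at log2 ratios of -0.98, -0.94 and -0.88.

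Other endothelial genes had the opposite sign or no difference. The VEGF receptor Flt1 was at 2130 and 1422, Kdr at 3153 and 2462 and von Willebrand factor (Vwf) at 2122 and 1537, all higher in the induced pool by less than 2-fold. Tek was at 2398 and 2639. In the alveolar epithelium, the surfactant-processing protease Napsa was at 1425 and 3132, 2.20-fold, with 2895, 3499 and 6981 in the normal-pressure pools. The phosphate carrier Slc34a2 of type 2 cells was at 4402 and 7209, 1.64-fold. The summed type 2 list was at 76825 in the induced, 103835 in the hypoxic and 97686 to 99575 in the normal-pressure pools. The induced pool was thus the low one for type 2 genes, while for type 1 genes its sum of 42433 lay between wild type (39185) and the other 3 pools (54103 to 55414).

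Some mesenchymal and vasoactive genes were at their lowest in the induced pool. Of 11 pericyte genes 2 were higher in the hypoxic pool and 3 were above 0 (median -0.21, highest 0.73). Of 18 nitric oxide and vasoactive genes 2 were higher in the hypoxic pool and 5 were above 0 (median -0.15, highest 0.44). Over all measured genes 2.65% were higher in the hypoxic pool. Gucy1a1 is on both lists and counted in each. Neither list had a gene 2-fold higher in the induced pool. Integrin Itga8 of pericytes and alveolar myofibroblasts was at 544 in the induced pool and 1650 in the hypoxic pool, 3.03-fold, with 1373 without doxycycline, 2573 in SM22-rtTA and 1137 in wild type. Gucy1a1, a subunit of the nitric oxide receptor, was at 385 and 1152, 2.99-fold, with 617, 1821 and 741 in that order, and its partner Gucy1b1 at 1224 and 2216, 1.81-fold, with 1961, 2130 and 1422. A second probe set of each had the same direction, at 398 and 827 for Gucy1a1 and at 639 and 1705 for Gucy1b1. The natriuretic peptide receptor Npr1, which also makes cyclic GMP, was at 316 and 750, 2.37-fold, with 407 to 661, but with a floor at the 70th percentile its log2 ratio was -0.45 and the call ended. For Itga8, Gucy1a1, Gucy1b1 and Npr1 the induced pool was below all 4 others. SM22-rtTA was highest for Itga8 and Gucy1a1, and hypoxia for Npr1 and the brightest probe set of Gucy1b1. In the second probe set of Gucy1b1 SM22-rtTA was highest, at 2101.

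More genes with the induced pool lowest were found outside the lists. The guidance cue Sema3c was at 527 and 2006, 3.81-fold, with 901, 2844 and 917 in the normal-pressure pools. Epas1, the hypoxia-inducible factor subunit that endothelium makes most of, was at 1129 and 3181, 2.82-fold, with 1520, 4548 and 2382. The sphingosine phosphate receptor S1pr1 was at 1034 and 2918, 2.82-fold, with 2220, 3615 and 1874. In Sema3c, Epas1 and S1pr1 the hypoxic value was inside the normal range and the induced value below it. They were chosen after their values were seen, except Sema3c.

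Matrix genes moved in both directions and few were 2-fold apart. Of 32 extracellular matrix genes 1 was higher in each pool and the median was -0.11, a sign that turned with intensities as deposited (0.02) and with a common median over all probe sets (0.01). The microfibril protein Mfap4 was at 1343 and 4689, 3.49-fold, with 3330 to 4957 in the normal-pressure pools. The proteoglycan lumican (Lum) had the opposite direction, at 858 and 291, 2.95-fold, with at most 429, and fell under 2-fold with the higher floor (0.64). Of 21 basement membrane genes 2 were higher in the hypoxic pool (median -0.35), Col13a1 at 416 and 1227 and the alveolar collagen chain Col4a3 at 289 and 721, under 2-fold with the higher floor (-0.39). Elastin (Eln) was at 1668 and 2502, with a second probe set at 532 and 1457, and collagen Col1a1 at 1559 and 1538.

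BMP signalling genes were lower in the induced than in the hypoxic pool in part, and few were far apart. Id1, the best known target of BMP receptors in vessels, was at 1547 in the induced pool and 3122 in the hypoxic pool, 2.02-fold, with 2720 without doxycycline, 2748 in SM22-rtTA and 2797 in wild type. The induced value was the one away from the other 4, and the 2-fold call ended with intensities as deposited (-0.88). Id2 was at 644 and 1054, Id3 at 1720 and 2469 and the inhibitory Smad7 at 846 and 1445, all under 2-fold. Id4 ran the other way, at 643 and 329, 1.96-fold. Of 12 BMP-responsive genes 1 was at least 2-fold apart, where 5.39% of all measured genes were, and 8 were below 0, with a median of -0.39.

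The receptors themselves gave little. Bmpr2 was at the floor in both pools, and the place of its probe set against the transgene is unknown, so it is no check of induction. Of 21 BMP receptors, ligands, SMADs and antagonists 0 were 2-fold apart, with a median of -0.24 that was 0.004 with a floor at the 70th percentile. The endothelial BMP receptor Acvrl1 was at 1258 and 2052, 1.63-fold, with 1471 to 3200 in the normal-pressure pools, and the ligand Bmp5 at 528 and 1002, 1.90-fold. Bmpr1a was at 817 and 705. Of 18 TGF-beta genes 0 were 2-fold apart (median -0.28), and of 15 Notch genes 0 were (median -0.14). Over all measured genes 5.39% were 2-fold apart. A count of 0 in lists this short is near that share and is no result about them. In each of these lists most members were below 0, as was the case for alveolar and endothelial genes.

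Targets of the hypoxia-inducible factors were not higher in the hypoxic lung as a list. Of 19 measured 12 were above 0, towards the induced pool, with a median of 0.20 that became -0.10 with the mean of probe sets. The vessel growth factor Vegfa was at 1807 in the induced pool and 2165 in the hypoxic pool, 1.20-fold, while its other, dimmer probe set was at 465 and 1234, with 1019 to 2179 in the normal-pressure pools, so there the induced pool was the low one. Among the rest, the mitophagy gene Bnip3 was at 2041 and 1390, and the histone demethylase Kdm3a at 791 and 425, 1.86-fold. Haem oxygenase Hmox1 was the 1 member past 2-fold, where 5.39% of all measured genes were. It was at 315 and 638, with 394 to 734 in the normal-pressure pools. Its log2 ratio was under 2-fold with intensities as deposited (-0.88) and with the higher floor (-0.215). The time between the end of hypoxia and sampling is not stated in the labels.

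The normal-pressure pools were then used to see which side of each difference lay outside their range. Of the 217 genes higher in the induced pool, the induced value was above all 3 normal-pressure pools in 177 (81.6%), against 24.8% of all measured genes, and the hypoxic value was below all 3 in 83 (38.2%), against 17.9%. In 51 both held, and in 36 both pools were above the normal range, the induced one more so. Of the 210 genes higher in the hypoxic pool, the hypoxic value was above all 3 in 159 (75.7%), against 29.0%, and the induced value below all 3 in 82 (39.0%), against 15.4%. In 50 both held. A 2-fold difference between the pools by itself makes a place outside the range more likely, so these shares describe where the differences sit and are no test. Without the wild-type pool the counts were 202 and 184.

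**Figure D5:**
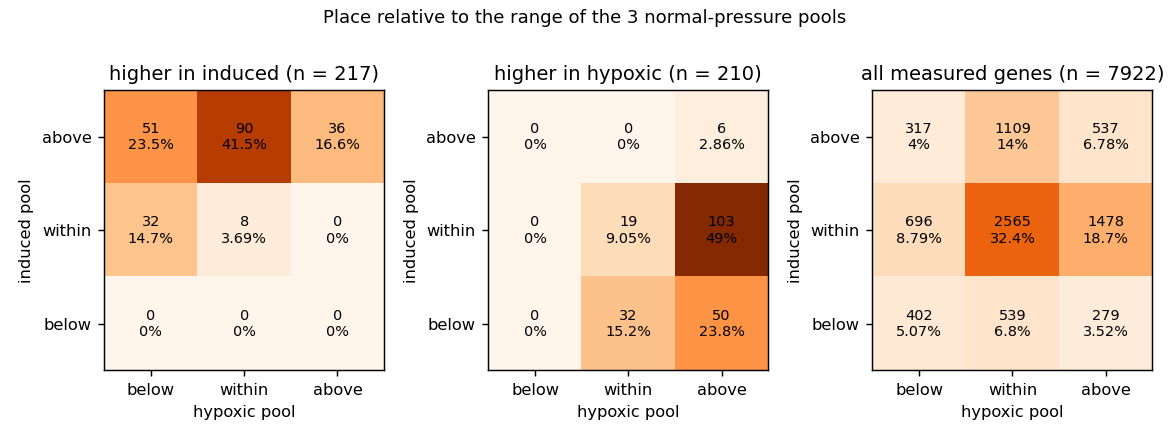
Number and percent of genes by the place of the hypoxic pool (columns) and the induced pool (rows) against the range of the 3 normal-pressure pools, for the 217 genes higher in the induced pool, the 210 higher in the hypoxic pool and all 7922 measured genes. The fullest cell on the induced side is induced above with hypoxic within the range (90 genes), and on the hypoxic side hypoxic above with induced within it (103 genes).

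The hypoxic and the wild-type pool stood together in some of the called genes. In 88 of the 210 genes (41.9%) the hypoxic and the wild-type pool were both at least 1.5-fold above all 3 SM22 pools, as were 242 of all measured genes (3.05%). The mirror image, both at least 1.5-fold below the SM22 pools, held for 16 of the 217 genes on the induced side (7.37%) and 35 of all (0.44%). The called genes are those with the hypoxic pool at least 2-fold from the induced pool, itself an SM22 pool, so their choice raises both shares. The 2 sides were not compared by a test. These counts were made after the values were seen. By title, the hypoxic and wild-type pools are the FVB/N pools, and the other 3 carry an SM22 transgene, so strain, transgene and array cannot be told apart here. The potassium channel subunit Kcnab3 was at 438 in the induced pool and 1737 in the hypoxic pool, with 389 and 498 in the transgenic normal-pressure pools and 1383 in wild type, while its other probe set was at the floor in both pools. Foxm1, a cell cycle factor, was at 526 and 1542, with 556, 341 and 1145, while the mean of its 4 probe sets gave a log2 ratio of -0.06. The lymphocyte factor Runx3 was at 575 and 1610, with 531, 640 and 1210. Proliferation genes did not follow Foxm1. Of 16 measured, 0 were 2-fold apart, where 5.39% of all measured genes were, and 13 were above 0, towards the induced pool.

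Called genes of the hypoxic side were dimmer than those of the induced side. Both were brighter than measured genes in general. The rule for a call, 2-fold over a value no lower than the floor, by itself favours brighter genes. In 104 of 210 (49.5%) the higher intensity was below 1000, against 75 of 217 (34.6%) on the induced side, and the median higher intensity was 1007 and 1243, against 738 over all measured genes. Some called genes had another probe set above the floor in the pool where the gene was higher. That probe set had the same sign in 76 of 87 cases (87.4%) on the induced side and 33 of 41 (80.5%) on the hypoxic side. It was itself at least 2-fold apart in 35 of the 87 and 9 of the 41. Probe sets above the floor only in the other pool, which have the opposite sign, were left out, and this raises the shares. Among genes measured in both pools, ranked by mean intensity into 4 equal groups, the brightest group held 47 genes higher in the induced pool and 22 higher in the hypoxic pool, and the second dimmest group 52 and 70. Probe sets of 1 gene share the RNA and the array and are no replicates.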

How the data were processed

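The 5 oligonucleotide arrays of whole mouse lung, 1 per condition and hybridised with biotin-labelled pooled RNA per the labels, gave 1 linear intensity for each of 22626 probe sets as deposited by the authors. The authors' summary algorithm and scaling are not stated in the sources used. No deposited intensity lay under 50, and 9.85% to 12.5% of probe sets of each array sat at 50. From these, log2 intensities of the induced and hypoxic arrays were shifted (by -0.07 and 0.07) to a common median over 10044 probe sets above the 50th percentile of both. The floor was the 50th percentile of the pooled values, and lower values were raised to it. The normal-pressure arrays were put on the same scale, and places among 5 pools used 1 scaling of all 5. Of the probe sets 20380 had 1 gene in the platform annotation, 20351 of them with symbols updated by gene ID from RefSeq (GRCm38.p6), 691 had several and 1555 none. Each gene was read from its brightest probe set in the mean of both arrays.

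A gene was called at 2-fold with the higher pool above the floor. The members, the 56 gene lists and the rules were chosen with earlier results of these data known, so no list is independent evidence. Genes named by rule were 12 called genes from each end of the ratios (both pools above the floor, predicted loci left out), the 8 largest bounds in each direction, up to 4 called members of each list or its 2 brightest where none was called, and Bmpr2, Tagln and Id1, 132 in all. Other genes were named after their values were seen. Alternatives changed the scaling, floor, pseudocount (100), fold (1.5 and 3) and gene summary. The wild-type pool was left out of the normal range, and that range rescaled, after seeing the data. Python 3.11.15, numpy 2.4.6, pandas 2.3.3 and matplotlib 3.10.9 were used. Promoter motifs were searched in the RefSeq table by exact match.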

Additional observations from a re-analysis of the deposited data

Results flagged for a closer look

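Of the 2246 probe sets without a single named gene, which no comparison above used, 21 were at least 2-fold higher in the induced than in the hypoxic pool and above all 3 normal-pressure pools. A further 32 were at least 2-fold higher in the hypoxic pool and above the same 3 pools. These are counts outside the named genes and no result about them. Before the normal-pressure pools were considered, 32 and 40 of the 2246 were 2-fold apart in the respective direction. How many of the 2246 were above the floor is not given here, so no like share stands beside the 2.74% and 2.65% of measured genes.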

How the results depend on the processing

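No paired analysis was possible because each condition is 1 pool on 1 array, and for the same reason no replicate could be left out. Counts at 2-fold depended on the scaling, the floor, the fold and the gene summary. Higher in the hypoxic pool were 123 genes with intensities as deposited and 138 with a common median over all probe sets, instead of 210. A floor at the 30th percentile gave 743 genes apart, 420 of them higher in the hypoxic pool, and kept all 427. A floor at the 70th percentile gave 214 (125 higher in the induced, 89 in the hypoxic pool), all of them among the 427, and of the genes open to naming it ended the calls of 28, while the mean of probe sets ended 19 and a pseudocount 14. At 1.5-fold there were 1850 (867 and 983) and at 3-fold 87 (67 and 20). Each probe set by itself gave 649, with 342 higher in the induced pool. Quantile normalization (423), scaling on all 5 arrays (427), a pseudocount (367), the mean of probe sets (314) and probe sets chosen over 5 arrays (428) stayed within 1.5 times of the 427 in total.

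Of 503 list medians under the alternatives 11 changed sign, each of a list with a median within 0.25 of 0. These were extracellular matrix (0.024 as deposited, 0.007 with all probe sets), nerve (0.019 and 0.001), T cell (-0.021 and -0.409 with the lower and higher floor), sex-linked (-0.038 with the lower floor), BMP receptors (0.004) and B cell (-0.178) with the higher floor, and, with the mean of probe sets, hypoxia-inducible factor targets (-0.099) and interferon-stimulated genes (0.14). Krt6a turned with the mean of probe sets (-0.033) and with probe sets chosen over 5 arrays (-0.826). Intensity near the floor limits what could be seen, with 1406 of 7922 measured genes at the floor in 1 pool.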

Other observations

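Gene groups with no 2-fold pattern still differed in level. Of 11 clock genes driven through E-boxes 9 were above 0, with a median of 0.55. Of the same genes 0 were 2-fold apart, where 5.39% of all measured genes were. The output factor Dbp was at 1205 in the induced pool and 783 in the hypoxic pool, with 1284 without doxycycline, 368 in SM22-rtTA and 2316 in wild type, and Tef was at 3270 and 2059, with 2769, 1329 and 3137. The repressor Nr1d1 had the opposite sign, at 1179 and 2032, while its relative Nr1d2 was at 2774 and 1631. The hour at which lungs were taken is not given in the sources used here, and its part was not tested.

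Of 6 platelet genes 1 was at least 2-fold higher in the induced pool, and the median was 0.71. The platelet chemokine Ppbp was at 1895 and 806, 2.35-fold, with 1257, 1184 and 372 in the normal-pressure pools, and Pf4 was at 1686 and 911, 1.85-fold. Lymphocyte lists had no common direction, with medians of 0.14 for 13 B cell genes and 0.13 for 11 T cell genes, both of which turned negative with a higher floor. Of 18 club and airway secretory genes 1 was past 2-fold, the antimicrobial-type protein Bpifb1 at 963 and 401, which the mean of its probe sets put at a log2 ratio of 0.78 and the higher floor at 0.81. Of 9 kidney tubule genes 3 were higher in the hypoxic pool (Kap, Cyp2e1 and Slc22a8), against 2.65% of all measured genes. With the mean of probe sets the calls of Kap (-0.50) and Slc22a8 (0.0) ended, and that of Slc22a8 also with the higher floor (-0.08). The kidney list summed to 3151 in the induced, 5856 in the hypoxic, 2958 to 3994 in the transgenic normal-pressure and 36618 in the wild-type pool. The X inactivation RNA Xist was at 1811 and 1389, with 679 without doxycycline and the floor in SM22-rtTA and wild type, and the Y-linked Eif2s3y was at or under 280 in both elevated-pressure pools and at 360 to 389 in the others. The part of sex in the differences was not tested.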
